A study of Mus musculus with 10 samples.

Results

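Open regions that lay inside exons of protein-coding genes, away from their promoters, were examined in differentiating mouse erythroid cells. A region was the merged stretch of overlapping windows of 250 bp on each side of the peak summits of 10 lists. It was taken when at least 2 of the 10 lists had a summit in it, when its midpoint lay in an exon of any transcript of a protein-coding gene of the GENCODE M21 annotation, and when it was more than 1 kb from every protein-coding transcript start. The rule was met by 668 of the 28976 merged regions, or 3.24% of the 20609 regions that at least 2 lists shared. The others of those 20609 were 9321 regions near a protein-coding start, 5474 in introns and 5146 between genes. Only positions and the number of lists chose the regions, with no use of time, though the 2 lists of 1 hour were enough.

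The libraries came from an ATAC-seq time course, in which the Tn5 transposase cuts open DNA, of G1E-ER4 cells before (0 h) and 2, 6, 12 and 24 h after addition of β-estradiol. G1E-ER4 is a mouse erythroid progenitor line without functional Gata1 that carries GATA1 fused to the ligand-binding domain of the estrogen receptor, so cells at every time point, 0 h included, lacked native GATA1 and carried the fusion, grew in stem cell factor and erythropoietin, and differed in β-estradiol alone. Each time point had 2 libraries, and as all came from 1 line the tests measured the spread between these libraries. The 10 lists held between 10703 and 19864 peaks, without read totals, so sequencing depth could not be read from them and an unlisted region was only not called. Of 10 erythroid marker genes, 2 to 6 had a summit within 1 kb of a start, with Epor listed in all 10 libraries and Hbb-bt, Slc4a1 and Alas2 in none, while mast cell genes had 0 to 2 of 7, megakaryocyte genes 1 of 7, B cell genes 0 of 6 and T cell genes 0 to 1 of 6.

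An exon is the part of a gene kept in its mature RNA, either coding for protein or forming the untranslated ends (UTRs). Because regulatory proteins bind DNA irrespective of its coding role, exons can also hold enhancers, insulator sites bound by CTCF and starts of further transcripts. GATA1 and TAL1 are the main DNA-binding factors of red cell development, GATA1 recognizing GATA letters and TAL1 an E-box nearby.

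Short internal exons show how the open regions met gene structure. Each line gives the central 200 bp of a region on the plus strand of mm10, with exon bases in capitals and intron bases in lower case, for Rhd exon 8 of 10 (chr4:134892194-134892393), Ahi1 exon 20 of 24 (chr10:21054943-21055142) and Btaf1 exon 37 of 38 (chr19:37010039-37010238). Rhd encodes a blood group protein of the red cell membrane, Ahi1 a protein of the cilium base, and Btaf1 an ATPase that removes TATA-binding protein from DNA.
Rhd: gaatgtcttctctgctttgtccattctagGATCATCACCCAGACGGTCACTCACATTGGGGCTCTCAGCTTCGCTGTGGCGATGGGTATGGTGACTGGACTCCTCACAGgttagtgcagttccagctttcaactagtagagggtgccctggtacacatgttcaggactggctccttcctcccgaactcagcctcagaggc
Ahi1: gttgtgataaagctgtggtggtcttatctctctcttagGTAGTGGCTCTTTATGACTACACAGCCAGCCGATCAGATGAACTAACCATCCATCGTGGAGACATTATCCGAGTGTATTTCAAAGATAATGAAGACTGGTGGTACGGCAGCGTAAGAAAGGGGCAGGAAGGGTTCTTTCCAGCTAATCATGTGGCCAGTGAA
Btaf1: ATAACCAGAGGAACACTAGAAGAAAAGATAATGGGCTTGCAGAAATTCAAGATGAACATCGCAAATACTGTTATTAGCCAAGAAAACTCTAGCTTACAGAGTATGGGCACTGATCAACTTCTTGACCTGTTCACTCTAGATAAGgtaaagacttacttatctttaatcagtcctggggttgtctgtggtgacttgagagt

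The Rhd exon took up 80 of these 200 bp, the Ahi1 exon 162 and the Btaf1 exon 144, so that both splice borders of Rhd and 1 border of each other exon fell within the window. A contrasting kind of region had many CpG dinucleotides, shown in capitals for a coding exon of Angptl6 (chr9:20878051-20878250, minus strand) and the last coding exon of Spi1 (chr2:91115123-91115322, plus strand), the gene of the myeloid factor PU.1.
Angptl6: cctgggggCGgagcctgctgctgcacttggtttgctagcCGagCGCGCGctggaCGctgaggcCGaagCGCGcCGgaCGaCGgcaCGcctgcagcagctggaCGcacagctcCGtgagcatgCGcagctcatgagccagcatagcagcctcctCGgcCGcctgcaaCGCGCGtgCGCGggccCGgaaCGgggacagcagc
Spi1: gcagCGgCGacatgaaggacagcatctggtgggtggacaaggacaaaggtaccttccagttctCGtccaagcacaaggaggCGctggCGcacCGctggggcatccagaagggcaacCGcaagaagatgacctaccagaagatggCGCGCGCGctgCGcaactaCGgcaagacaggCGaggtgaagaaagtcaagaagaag

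The Angptl6 window held 25 CpG and that of Spi1 14. Matches to DNA-binding motifs are shown with 20 bases on each side, the match in capitals: a GATA match (AGATAA or TGATAA) at Ahi1 (chr10:21054927-21054972, plus), 2700049A03Rik (chr12:71164432-71164477, minus) and Cers6 (chr2:68934756-68934801, plus), a composite of TAL1 and GATA letters (CTG followed after 7 or 8 bases by a GATA match) at Ppa2 (chr3:133339544-133339600, plus), Btaf1 (chr19:37010145-37010201, plus) and Nprl3 (chr11:32256303-32256358, minus), and a CTCF match at Vrk1 (chr12:106055947-106055998, minus). Nprl3, Cers6 and Vrk1 were chosen as examples after their values were seen.
Ahi1: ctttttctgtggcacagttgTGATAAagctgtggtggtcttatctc
2700049A03Rik: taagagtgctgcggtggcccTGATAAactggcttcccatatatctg
Cers6: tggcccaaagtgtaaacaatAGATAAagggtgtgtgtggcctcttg
Ppa2: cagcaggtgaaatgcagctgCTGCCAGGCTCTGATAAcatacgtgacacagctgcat
Btaf1: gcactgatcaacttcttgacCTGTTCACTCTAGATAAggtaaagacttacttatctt
Nprl3: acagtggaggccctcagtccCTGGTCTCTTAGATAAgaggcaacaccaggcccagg
Vrk1: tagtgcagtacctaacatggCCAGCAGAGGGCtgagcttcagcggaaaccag

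The Ahi1 GATA match and the Vrk1 CTCF match printed here lay in intron bases beside the exon, and the other matches printed lay on exon bases. The 200 bp of Ahi1 held 2 further GATA matches, 1 on the minus strand in the intron and 1 on exon bases. In Btaf1 the composite match ended 1 base before the last base of the exon.

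The exon regions fell into parts of genes in unequal numbers. Annotated 3′ UTRs held 254 (38.0%) of the 668 midpoints, coding sequence 222 (33.2%), exons found only in noncoding transcripts of protein-coding genes 186 (27.8%) and 5′ UTRs 6 (0.898%). Of the 222 coding regions, 165 lay in internal exons and 53 in last exons. Of the 186 noncoding regions, 128 came from transcripts annotated as retained introns, 46 from processed transcripts and 12 from transcripts marked for nonsense-mediated decay, so many of these exons are introns of the coding transcripts of the same gene. The exons were of different size, with a median of 196 bp for coding, 2824 bp for 3′ UTR and 1274 bp for noncoding transcripts. A region was longer than many exons (median width 650.5 bp), and the exon that held the midpoint also held 2983 of the 3456 summits (86.3%), but 563 of 846 (66.6%) for internal coding exons, where a summit could sit in the intron beside.

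The regions belonged to 643 genes, counting 1 gene per region. Of these genes 23 had 2 regions and 1 gene, D10Wsu102e, had 3, all in a single annotated last exon of 122802 bp, listed in 3, 5 and 6 libraries. Starts of other kinds of transcript were often near. Within 1 kb of a start of any annotated transcript lay 198 of the 668 regions (29.6%), and 103 of the 186 in noncoding transcripts (55.4%), against 27 of the 254 in 3′ UTRs (10.6%). Another stretch of the genome matched 19 of the 668 regions (2.84%) over at least 100 bp at 90% identity or more, 13 of them in 3′ UTRs and 6 in coding exons, and the authors kept only reads with a single position. At the distance limit, 17 exon regions lay up to 200 bp beyond 1 kb (median 6 lists) and 18 up to 200 bp inside it (median 3 lists), and 366 exon regions in a single list (median rank percentile 15.6) stood just outside the list limit against 167 in 2 lists (24.4). The rank percentile places a summit by its peak score inside its own list, 100 being the highest, since scores were not scaled between libraries. It still depends on the length of that list.

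Exons held more summits per base than introns in every library. The question was whether open sites away from promoters avoid or favour exons. Counting bases more than 1 kb from protein-coding starts, 79.8 Mb of exon and 910 Mb of intron, the lowest exon density was 2.72 summits per Mb (24 h replicate 2, intron 1.72) and the highest 7.99 (6 h replicate 2, intron 5.56). The ratio of exon to intron density had a geometric mean of 1.51 and ran from 1.36 to 1.65, a mean log2 ratio of 0.60 ± 0.08 (SD, n = 10 libraries), above 1 in 10 of 10 libraries (exact sign-flip permutation p = 0.00195, two-sided, Benjamini-Hochberg adjusted p = 0.00781 over 4 tests). The p-value is the smallest that 10 libraries allow, and as the libraries share a genome and an annotation it speaks for these libraries only.

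**Figure D1:**
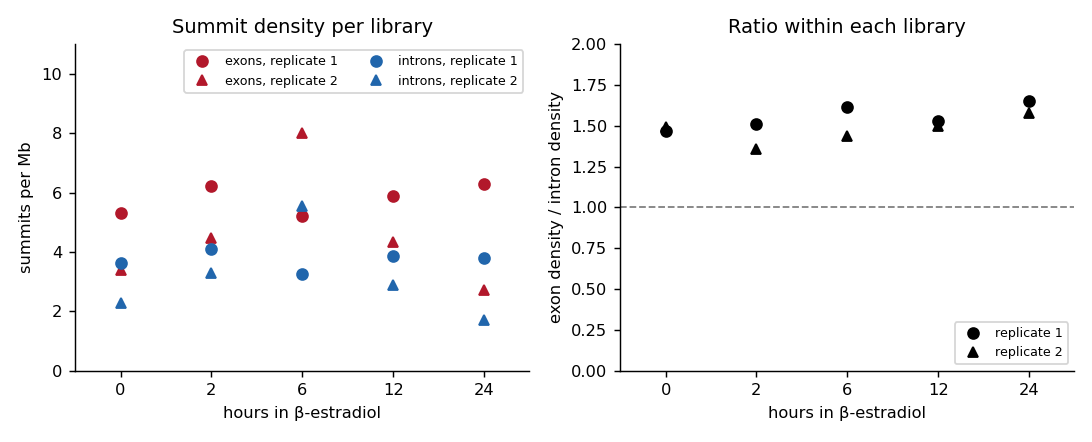
Left, summits per Mb of exon (red) and intron (blue) more than 1 kb from protein-coding starts, by hours in β-estradiol, with a circle for replicate 1 and a triangle for replicate 2. Right, the ratio of the densities in each library on a linear axis, with 1 as a dashed line. All 10 ratios lie above 1, between 1.36 and 1.65.

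Repeats and unlisted starts moved the size of this ratio. Without repeat-masked bases, which made up 14.4% of the exon and 29.2% of the intron bases, the ratio was 1.29 (1.15 to 1.43, above 1 in 10 of 10 libraries). With the starts of every annotated transcript kept at 1 kb, the mean log2 ratio was 0.44. At 20 kb from protein-coding starts and outside repeats the ratio was 1.21, above 1 in 9 of 10 libraries (exact sign-flip permutation p = 0.00391). The part that alignable sequence plays in the ratio was not tested.

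Each part of the exon had a denser set of summits than introns. The geometric mean ratio was 1.5 in coding sequence (1.29 to 1.70), 1.29 in 3′ UTRs (1.11 to 1.60), 1.79 in exons of noncoding transcripts (1.61 to 2.02) and 3.97 in 5′ UTRs (3.08 to 6.90), each above 1 in 10 of 10 libraries. The 5′ UTR value rests on 8 to 15 summits per library over 0.758 Mb. Outside masked repeats the ratio was 1.20 for coding sequence, 1.12 for 3′ UTRs and 1.64 for noncoding transcripts. In 3′ UTRs 8 of 10 libraries were then above 1 (exact sign-flip permutation p = 0.0254, not adjusted), so the excess there was the smallest of the parts and not shared by every library.

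**Figure D2:**
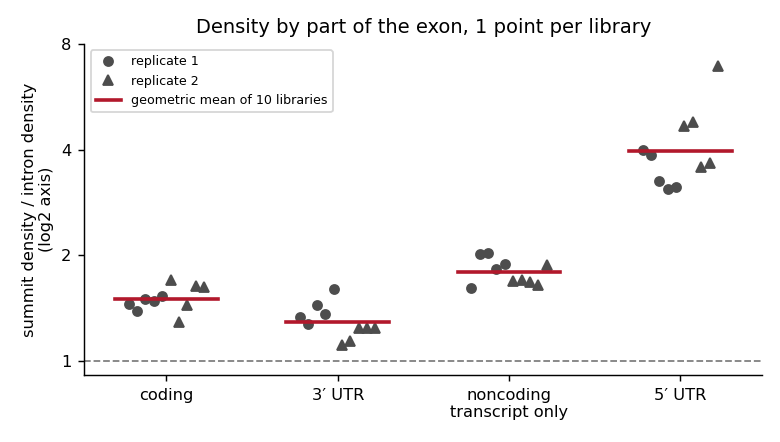
Summit density in each part of the exon divided by intron density, on a log2 axis, with 1 point per library (circles replicate 1, triangles replicate 2), the geometric mean of the 10 libraries as a red line and a ratio of 1 dashed. Values in 3′ UTRs lie nearest to 1 and those in 5′ UTRs highest.

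Exon regions were listed about as often as other regions away from promoters. In all 10 lists stood 73 of 668 (10.9%), against 9.34% of intron regions, 12.3% of intergenic regions and 53.8% of regions near protein-coding starts. Only 2 lists held 167 (25%). The median rank percentile was 31.9 for exon regions, 30.7 for introns, 31.5 between genes and 58.1 near starts. Within exons, 33 of 222 coding regions (14.9%) were in all 10 lists, 19 of 254 in 3′ UTRs (7.48%), 18 of 186 in noncoding transcripts (9.68%) and 3 of the 6 in 5′ UTRs. These shares are descriptions of regions, which are not replicates.

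The strongest of the regions in all 10 lists were Lars2, Map3k6, Ahi1, Angptl6, 2700049A03Rik and Ppa2 (mm10 regions Lars2 chr9:123461739-123462255, Map3k6 chr4:133247756-133248387, Ahi1 chr10:21054655-21055431, Angptl6 chr9:20877748-20878554, 2700049A03Rik chr12:71164222-71164867, Ppa2 chr3:133339281-133339914). At the 3′ UTR of Lars2, the mitochondrial leucyl-tRNA synthetase, the rank percentile was at least 99.8 in every library (median 99.9), but this sequence had 7 further matches in the genome at up to 97.84% identity. In coding exon 16 of 29 of Map3k6, a stress kinase gene, it ran from 82.1 (24 h replicate 2) over a median of 94.8 to 98.6 (0 h replicate 2). The CpG-rich Angptl6 exon shown above ran from 88.5 over 93.9 to 97.6. At 2700049A03Rik it lay between 89.0 and 97.2 in 9 libraries and at 41.0 in 6 h replicate 1. In an exon of a retained-intron transcript of Ppa2, a mitochondrial pyrophosphatase, it ran from 64.3 (12 h replicate 2) over 90.5 to 95.9. The nearest start of any annotated transcript was 172 bp from the Ppa2 region, 478 bp from Map3k6 and 1173 bp from Angptl6. For Lars2 it was 6949 bp and for 2700049A03Rik 13788 bp away.

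Ahi1 was the exon region with the lowest p for a change in rank. Its rank percentile was 96.3 and 98.6 in the untreated libraries, 97.6 and 98.6 after 2 h, 86.6 and 94.8 after 6 h, 92.8 and 94.7 after 12 h, and 33.6 and 67.6 after 24 h. Both 24 h libraries thus lay below all 8 others. The region is 13835 bp from the nearest protein-coding start and 5756 bp from the nearest start of any transcript. It is 105.9 kb from the nearest start of Myb, the progenitor transcription factor gene, and a link to Myb was not tested. In limma over normal scores of the ranks of the 6233 regions listed everywhere, Ahi1 had a difference of -2.36 between 24 h and 0 h (SE 0.575), with an adjusted p of 0.724, and the difference did not pass the threshold. In this fit 0 regions had an adjusted p under 0.05, the background being 0% of all 6233 in each direction, and 0 of the 73 exon regions passed. On simulated normal scores the fit recovered 21 of 100 regions changed by 2 at 24 h, and 83 of 100 changed by 4. Changes of about the size seen at Ahi1 could therefore be missed. At an unadjusted p under 0.05 stood 4 of the 73 exon regions and 4.17% of all regions (260), and with the replicate number as a block 9 and 467, again with 0 past the adjusted threshold.

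Next by p stood Atn1, which encodes a transcriptional corepressor, and Pcyox1l. The Atn1 region contained a start of an annotated transcript, and the Pcyox1l region lay 4582 bp from the nearest. The Atn1 coding exon had rank percentiles of 82.8 and 84.5 at 0 h and 61.1 and 11.2 at 24 h, a difference of -1.69 (limma adjusted p = 1). The 3′ UTR of Pcyox1l had 16.2 and 38.6 at 0 h and 79.2 and 62.9 at 24 h, a difference of 1.48 (limma adjusted p = 1). In both, the 24 h libraries did not overlap with the 0 h libraries. As Ahi1, Atn1 and Pcyox1l were picked for the lowest p, such separation follows from the choice and is no support. The share of all regions without overlap was not counted. At Atn1 the hours between ran from 29.2 (12 h replicate 1) to 76.1 (12 h replicate 2), so the replicates of 1 hour lay as far apart as the groups. The other exon region with an unadjusted p under 0.05 was Zfp771 (limma difference -1.54, adjusted p = 1).

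The exon share of the open sites showed no trend over the course. Of each list's summits, 2.03% (24 h replicate 2) to 3.22% (24 h replicate 1) lay in exons beyond 1 kb, so the lowest and highest share came from the same hour. Against hours, Pearson's r was -0.076 (permutation p = 0.834) and Spearman's rho 0.148 (permutation p = 0.700), and without the 24 h libraries r was 0.248 (exact permutation p = 0.534). Within replicate 1 r was 0.798 (exact permutation p = 0.125, n = 5) and within replicate 2 it was -0.445 (exact permutation p = 0.408, n = 5). The direction rested on 24 h replicate 2, without which r was 0.470 (exact permutation p = 0.203). The adjusted p over 4 tests was 0.834.

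The exon share was lower in replicate 2 lists than in replicate 1 lists, without passing the adjusted test. It was 3.01% ± 0.16 (SD, n = 5) in replicate 1 and 2.51% ± 0.44 (SD, n = 5) in replicate 2, lower in replicate 2 at 4 of 5 time points, a difference of -0.501 percentage points (exact permutation p = 0.0476, 252 splits, two-sided, adjusted p = 0.0952). It did not pass after adjustment, and with the libraries paired by time the exact sign-flip permutation p was 0.125. List size moved with it, since the smallest list, 24 h replicate 2, had the lowest share and listed 194 of the 668 exon regions, while the largest, 6 h replicate 2, listed 487 and had a share of 3.21%. With every list reduced to the size of the smallest, the difference was -0.546 percentage points (exact permutation p = 0.00794, not adjusted), as large as with the full lists.

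The mean rank percentile of the 73 regions in all lists also had no trend, from 51.9 (24 h replicate 2) to 73.3 (6 h replicate 2). These were the shortest and the longest list (10697 and 19855 summits used), so this mean moved with list length. The next shortest list, 0 h replicate 2 (11697 summits), had 53.3. Pearson's r with hours was -0.169 (permutation p = 0.645) and Spearman's rho 0 (permutation p = 1, adjusted p for r 0.834), and without the 24 h libraries r was 0.277 (exact permutation p = 0.502). Within replicate 1 r was 0.117 (exact permutation p = 0.858) and within replicate 2 it was -0.346 (exact permutation p = 0.550). Without 24 h replicate 2 it was 0.315 (exact permutation p = 0.413). With every list reduced to the size of the smallest, r was -0.051 (permutation p = 0.892) over the 45 exon regions then in all lists.

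Single exon regions did appear and disappear between time points. A region was called gained when both libraries of an hour and neither 0 h library listed it, and lost in the opposite case. The 2 lists behind a call already meet the rule for the exon regions, as they do for all 20609 regions. With 2 libraries against 2 no exact test can go below p = 0.333, so none was made, and all hours share the same 0 h libraries. At 2 h, 33 exon regions (4.94%) were gained against 3.75% of all 20609 regions, and 15 (2.25%) lost against 1.62%. At 6 h, 47 (7.04%) were gained against 5.74% and 12 (1.80%) lost against 1.07%. At 12 h, 23 (3.44%) were gained against 3.47% and 22 (3.29%) lost against 2.65%. At 24 h, 27 (4.04%) were gained against 2.40% and 34 (5.09%) lost against 4.93%.

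The share of all regions includes the many stable ones near starts, so introns and intergenic DNA are the closer comparison. Beside these, exon shares lay near at 2 and 6 h. At 12 h, 5.08% of intron and 4.33% of intergenic regions were gained against the 3.44% in exons. Losses at 12 h were 3.89% and 4.43% against the 3.29% in exons. Exon losses were also lower at 24 h, and these differences were not tested. At 24 h, 7.65% of intron regions and 8.34% of intergenic regions were lost against the 5.09% in exons, and 3.34% and 3.19% were gained against the 4.04% in exons. At 6 h, 7.78% and 7.87% were gained against the 7.04% in exons. The 24 h counts turned on single libraries. Without 24 h replicate 2, 132 exon regions met the criterion for a gain and 38 for a loss, without 24 h replicate 1 44 and 71, without 0 h replicate 1 63 and 53, and without 0 h replicate 2 34 and 100. Leaving out a library loosens the criterion by construction. List size also moved the counts. With every list reduced to the size of the smallest, 17 exon regions were gained at 2 h, 17 at 6 h and 13 at 12 h. Of the 415 exon regions that then met the rule, 34 were gained and 22 lost at 24 h, so that gains outnumbered losses. These counts, and those without single libraries, were not set against all regions. Whether they are particular to exons was not tested.

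**Figure D3:**
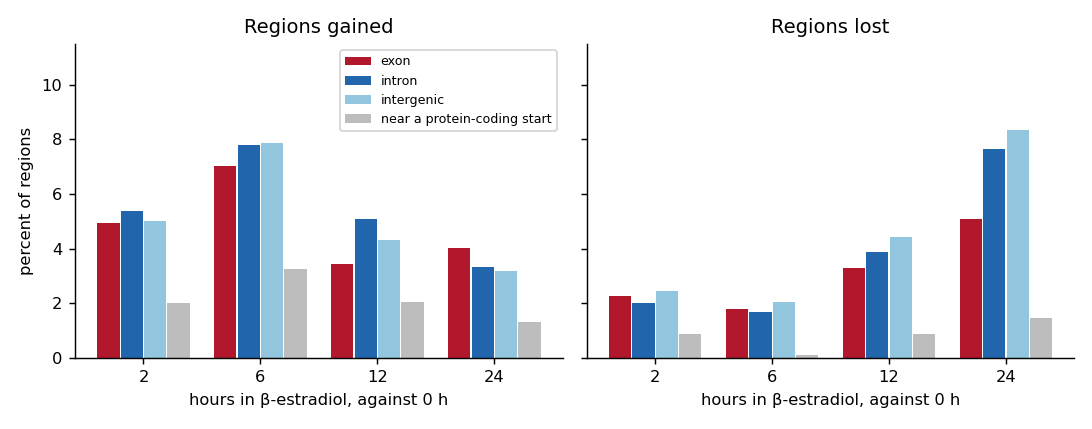
Percent of the regions of each class that were gained (left) or lost (right) at each hour against 0 h, with exons in red, introns in dark blue, intergenic regions in light blue and regions near a protein-coding start in grey. Exon bars stand close to intron and intergenic bars, with losses at 24 h of 5.09%, 7.65% and 8.34%.

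Losses at 24 h with the highest 0 h ranks were Cep290, Ercc6l2, Mbp, Btaf1 and Slc38a9 (mm10 regions Cep290 chr10:100498172-100498794, Ercc6l2 chr13:63872325-63873136, Mbp chr18:82513501-82514236, Btaf1 chr19:37009806-37010473, Slc38a9 chr13:112672588-112673378). The Btaf1 exon shown above had rank percentiles of 79.2 and 77.2 before treatment, 74.2 and 92.04 after 2 h, 28.1 and 83.7 after 6 h and 49.6 in 12 h replicate 2, and was unlisted in 12 h replicate 1 and at 24 h. Cep290, a cilium gene, was listed in a retained-intron transcript at 79.9 and 83.5 before treatment, 9.56 and 40.3 after 2 h, and 58.6 and 0.901 in replicate 2 at 6 and 12 h. Btaf1 and Cep290 were both listed at 12 h in replicate 2 and not in replicate 1. The Cep290 region contained a start of an annotated transcript, and the other lost regions named here lay 1816 bp or more from any. Ercc6l2, which encodes a DNA repair helicase, went from 76.3 and 86.6 before treatment to 17.3 and 21.8 after 2 h and 9.56 and 0.0227 after 6 h, with 31.5 in 12 h replicate 1. Slc38a9, the lysosomal amino acid sensor, had 81.4 and 57.6 before treatment, 29.2 in 2 h replicate 2, 33.6 and 46.6 after 6 h, and 73.6 and 4.36 after 12 h. Both were listed in 12 h replicate 1. The 3′ UTR of Mbp, myelin basic protein, had 83.2 and 76.3 before treatment, 43.9 and 50.8 after 2 h, and 74.6 and 24.1 in replicate 2 at 6 and 12 h. At 2 h the replicates of Mbp and Ercc6l2 lay close together, whereas those of Cep290 lay further apart.

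Gains at 24 h with the highest 24 h ranks were Nucb1, Anxa9, Tut7, Thop1 and AU022252, none listed at 0 h (mm10 regions Nucb1 chr7:45508433-45509043, Anxa9 chr3:95295989-95296561, Tut7 chr13:59795728-59796408, Thop1 chr10:81082085-81082839, AU022252 chr4:119204529-119205146). Nucb1, a calcium-binding protein gene, had 57.9 in 2 h replicate 1, 58.1 and 51.3 after 6 h, 47.4 and 36.1 after 12 h, and 86.1 and 61.1 after 24 h, so it was listed in both replicates from 6 h. Tut7, which encodes an enzyme that adds uridines to RNA, had 16.1 in 2 h replicate 2, 34.8 in 6 h replicate 1, 67.7 in 12 h replicate 2, and 88.0 and 26.6 after 24 h. Its calls at 2, 6 and 12 h each came from a single replicate. The Tut7 region lay 722 bp from the nearest start of any transcript, the other gained regions named here 1272 bp or more. The 3′ UTR of Anxa9, an annexin gene, had 23.4 and 35.8 in replicate 2 at 2 and 6 h, 35.6 in 12 h replicate 1, and 68.1 and 49.7 after 24 h. The 3′ UTR of Thop1, a peptidase gene, had 30.1 and 30.7 after 2 h, 50.1 in 6 h replicate 2, 25.6 and 28.2 after 12 h, and 70.3 and 33.1 after 24 h. Thop1 was thus called in both replicates at 2 and 12 h as well, and Anxa9 in both only at 24 h. AU022252 had 22.5 and 6.97 after 2 h, 15.4 in 6 h replicate 1, 63.4 and 9.2 after 12 h, and 64.4 and 37.4 after 24 h. In all 5, replicate 1 stood above replicate 2 after 24 h, where its list was also longer. As the 5 were picked for the highest 24 h ranks, a peak at 24 h follows in part from the choice.

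**Figure D4:**
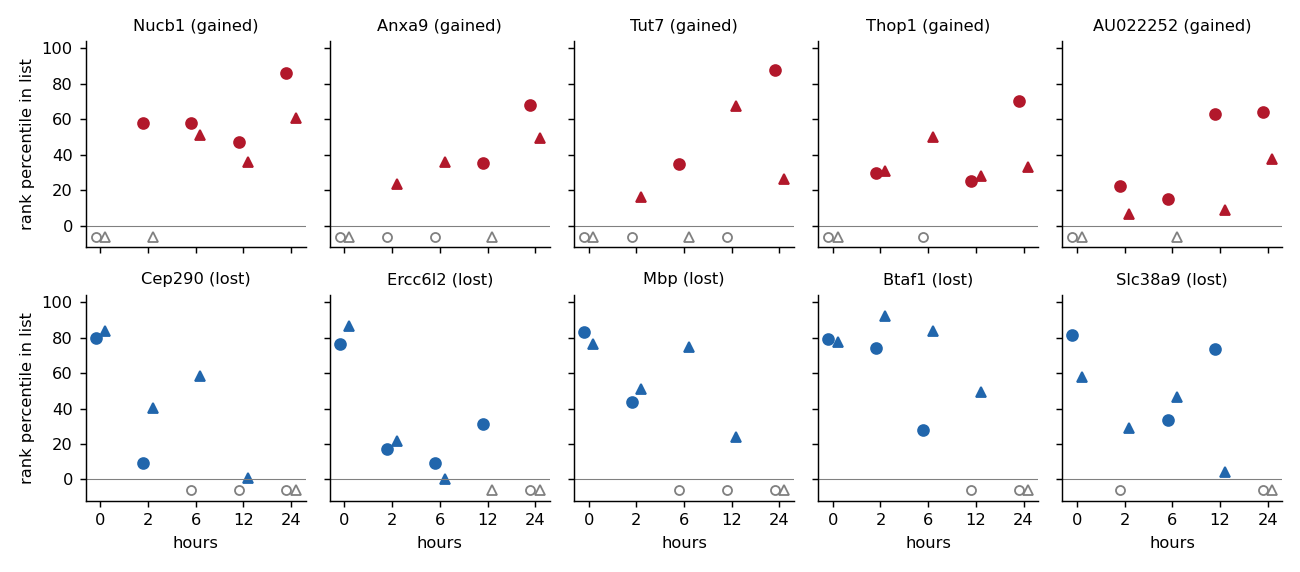
Rank percentile (100 highest) of the 5 exon regions gained (red, top) and the 5 lost (blue, bottom) at 24 h with the highest ranks in the hour that lists them, by hours in β-estradiol, with circles for replicate 1 and triangles for replicate 2. Open grey symbols below the line mark libraries that did not list the region, and in most panels the hours between 0 and 24 h hold listed and unlisted libraries.

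Few exon regions followed a clean course. In 102 of the 668 both replicates matched at every hour, of which 73 were always listed. Among the other 29, 9 were listed at 6 h alone, 9 switched off once in time order and 2 switched on once. The longest list, 6 h replicate 2, was 1 of those at 6 h. Regions listed at a single hour met the rule of 2 lists only through that hour, so their course follows in part from the choice. Such courses were not counted over all regions, so the numbers only describe these exon regions. Spi1, which encodes PU.1, was among those that switched off. Its last coding exon, shown above, had rank percentiles of 46.6 and 24.8 before treatment, 3.41 and 26.0 after 2 h, 11.9 and 29.3 after 6 h, and 46.1 and 21.95 after 12 h, and was listed in neither 24 h library. The Rhd exon had 27.1 and 5.88 before treatment, 41.2 and 57.4 after 2 h and 43.1 in 6 h replicate 2, and was in no list at 12 and 24 h.

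Exon regions in the erythroid gene lists numbered 2. An exon region lay in 1 of 20 red cell membrane and blood group genes (Rhd), 1 of 23 hematopoietic transcription factor genes (Spi1), 0 of 11 heme synthesis genes, 0 of 13 cytokine receptor and signalling genes, 0 of 19 chromatin regulator genes and 0 of 39 Hox genes, against 3.05% of all protein-coding genes when every gene overlapping the midpoint is counted. An intron region lay in 14 of the 20 membrane genes, 11 of the 23 transcription factor genes, 6 of the 11 heme genes, 5 of the 13 cytokine genes and 7 of the 19 chromatin genes, but in 4 of the 39 Hox genes (10.3%) and 32 of the 397 zinc finger genes (8.06%), against 15.2% of all genes. Of the 397 zinc finger genes 7 (1.76%) held an exon region. The last coding exon of Zfp771 was listed in all 10 libraries, from 34.4 (24 h replicate 1) over a median of 81.1 to 92.7 (0 h replicate 2). Zfp609 was in 7 lists and in neither at 24 h, Zfp219 in 6, and Zfp773 in 3 with 173 other genomic matches.

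In sequence the exon regions were mixed. Motifs were sought on both strands of the central 200 bp. A GATA match was in 34.7% of exon regions, 46.8% of intron regions, 38.5% of intergenic regions, 6.83% of regions near starts and 26.3% of all. Exons of noncoding transcripts had one in 47.8% (89 of 186), 3′ UTRs in 30.7% (78 of 254) and coding exons in 28.8% (64 of 222). The composite, each of whose matches contains a GATA match, was in 7.34% of exon and 9.99% of intron regions (5.60% of all). A CTCF match was in 9.88% of exon regions and 7.20% of intron regions (4.96% of all), with 12.6% in 3′ UTRs. An AP-1 match (TGANTCA) was in 6.44% of exon and 9.55% of intron regions (6.33% of all), and an ETS match (CCGGAA) in 6.44% and 2.80% (12.3% of all). A RUNX match (TGTGGT) was in 17.1% of exon and 22.5% of intron regions (14.8% of all). Intergenic regions had the composite in 8.7%, CTCF in 8.94%, AP-1 in 9.56%, ETS in 5.17% and RUNX in 19.4%. For CTCF and ETS the exon share was thus closer to the intergenic than to the intron share. Of the other motifs searched, KLF matched 180 of the 668 exon regions (26.95%), against 23.62% of intron, 25.9% of intergenic and 39.25% of all regions. PU.1 matched 30 (4.49%), against 5.21% of intron, 3.85% of intergenic and 3.42% of all regions. YY1 matched 15 (2.25%), against 1.26%, 1.34% and 2.41%. NF-E2 matched 5 (0.749%), against 1.35% of intron, 1.28% of intergenic and 0.742% of all regions. NRF1 matched 1 (0.150%), against 0.0731%, 0.117% and 0.636%. Of the 309 GATA matches, 274 (88.7%) lay wholly on exon bases, which were 90.7% of the bases searched.

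CpG-rich windows were most frequent in coding exons among the 3 larger parts. An observed-to-expected CpG ratio over 0.6 was found in 30.6% of coding regions (68 of 222), 5.51% of 3′ UTR regions, 6.45% of noncoding transcript regions, 219 of 5474 intron regions and 79.2% of regions near starts. Of the 73 exon regions in all 10 lists 37.0% passed this ratio, and of the 167 in 2 lists 8.98%. The other classes were not divided by number of lists. The GC content had a median of 52% in exon and 49% in intron regions. Repeat-masked bases made up at least 50% of the window in 13 exon regions (1.95%).

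**Figure D5:**
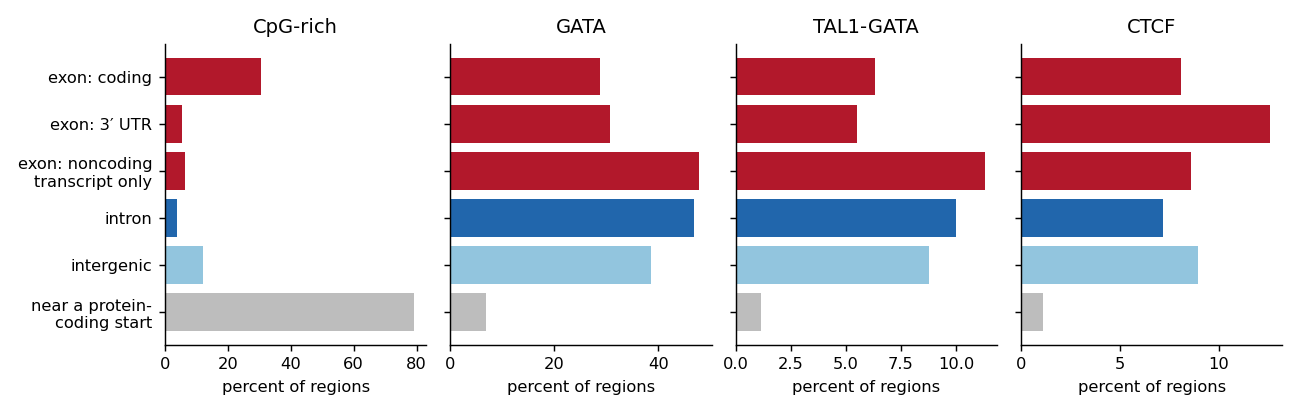
Percent of regions whose central 200 bp had a CpG observed-to-expected ratio over 0.6 or a match to the GATA, TAL1-GATA composite or CTCF motif, for the 3 larger parts of exons (red), introns (dark blue), intergenic regions (light blue) and regions near a protein-coding start (grey). Each panel has its own axis from 0. Coding exons lead the exon parts in CpG (30.6%), and noncoding transcript exons in GATA matches (47.8%).

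Exon regions lost at 24 h had GATA matches in 20 of 34 (58.8%), below the 73.3% of lost intron and 72.0% of lost intergenic regions, and composite matches in 7 of 34 (20.6%), beside 20.5% and 20.7%. Exon regions gained at 24 h had GATA matches in 13 of 27 (48.1%), near the 44.8% of gained intron and 44.5% of gained intergenic regions. They had a composite in 1 (3.70%), beside 5.46% and 10.4%. Among the 5 lost regions described above, Cep290, Ercc6l2, Btaf1 and Slc38a9 had a GATA match and Mbp none, and Cep290, Ercc6l2 and Btaf1 had the composite. Among the 5 gained, Nucb1 had a GATA match and Thop1 a CTCF match. These shares were not tested, and a match does not show that a factor was bound.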

How the data were processed

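ATAC-seq libraries of G1E-ER4 cells (10, 2 per time point) were grouped by sample title. The authors aligned reads to mm10, kept reads with 1 position and called peaks in each library by MACS with its model switched off. Bowtie2 stands in the methods, whereas the submitters' processing notes list Bowtie 1.0.0, Picard and MACS2, so the aligner is not settled. Each deposited list gives summits 1 bp wide with a score, the −log10 of the q-value (lowest 1.30), that rises with depth and is not scaled between libraries. A Tn5 shift is not given in the sources used here.

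From these lists, summits on the autosomes and X (146915) were extended by 250 bp, merged, and placed on GENCODE M21 with 54050 starts of protein-coding transcripts of protein-coding genes. Ranks were taken inside each list. Tests were exact or 100000-resample permutations over libraries and limma 3.58.1 (R 4.3.3) on normal scores with Benjamini-Hochberg adjustment, checked on simulated data. Genome matches came from BLAST 2.17.0 against GRCm38.

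Same-numbered libraries deviated together (correlations of 0.177 to 0.359 over 10 pairs of time points), which pairs them, from the data and not from the labels. The exon regions and gene lists were chosen with earlier results of these data known. Regions named were the 5 highest-ranked gained and lost at 24 h, the 6 highest in all lists, the 3 lowest p-values, genes with 3 or more regions, and up to 4 per gene list. Alternatives covered window, position rule, start distance, score, list size, single libraries and the block. The result of a single marker gene is not reported here.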

Additional observations from a re-analysis of the deposited data

How the results depend on the processing

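The exon-to-intron density kept its direction and its side of the threshold under every alternative run, with mean log2 ratios from 0.28 to 0.64, the lowest at 20 kb from starts outside repeats, a setting chosen after seeing the data, as were all those at 5 kb, 20 kb or outside repeats. Leaving out 1 library gave 0.58 to 0.61. With every list cut to the size of the smallest, 415 regions met the rule in place of 668, gains numbered 17 at 2 h, 17 at 6 h and 13 at 12 h, 24 h gave 34 gains against 22 losses, and the correlation of exon share with hours turned to 0.289. Where a summit had to lie in the exon, gains at 12 h numbered 36. Without 1 library, the correlation with hours ran from -0.410 to 0.470 for exon share and from -0.377 to 0.315 for rank, both turning positive without 24 h replicate 2 (0.470 and 0.315), the number of regions from 591 to 663, and gains and losses from 32 to 123 and 15 to 61 at 2 h, 47 to 149 and 12 to 44 at 6 h, 23 to 110 and 22 to 79 at 12 h, and 27 to 132 and 34 to 100 at 24 h, as a single library then decides a group. The replicate difference in share was -0.44 at 2 kb (exact permutation p = 0.0556), -0.34 with starts of every transcript (0.0635), -0.501 paired by time (0.125), -0.546 with lists of equal size (0.00794), -0.556 at a score of at least 3 (0.0397) and -0.676 to -0.380 without 1 library, the largest without 6 h replicate 2 (0.00794) and the smallest without 24 h replicate 2 (0.103). With the replicate number as a block, the permutation p against hours was 0.801 for share and 0.597 for rank, and 0 exon regions passed in limma, so the block changed no call. Gains and losses under these alternatives were not set against all regions. Depth is unknown, so an unlisted region cannot be told from one below the calling limit.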
